A study of Mus musculus with 47 samples.

Results

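The hepatic response of male Pxr+/+ mice to antibiotics was measured by comparing the livers of 6 ATB-treated mice with those of 6 control mice (CTRL). The mice were chosen by their labels alone and make up 12 of the 47 arrays of the series, which also holds Pxr-/- males and mice of the other sex. All 12 were wild-type littermates on the C57BL/6J background, born to Pxr+/- parents and kept apart by sex and genotype after weaning. They were allocated at random to the groups at 5 weeks of age and were 6 months old when treatment began. For 2 weeks ATB mice had vancomycin at 0.5 g/L, with ampicillin and neomycin at 1 g/L each, in their drinking water, and control mice had water without antibiotics. All were sacrificed at ZT6, that is 6 h after the lights came on. Each group was housed in 2 cages with 3 mice of each cage on arrays. The cage of a given mouse is not stated, so that mice sharing a cage were counted as separate replicates and cage could not be modelled. RNA came from whole liver, where fewer cells of a type and less RNA per cell cannot be told apart.

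The 12 arrays lay on 6 slides with 1 CTRL and 1 ATB array each, and the slides were washed in 3 batches of 3, 2 and 1. The labelled sex was checked: Xist was above background on 0 of 12 arrays, and Ddx3y and Eif2s3y on 12 of 12. Albumin (Alb), the main secreted protein of hepatocytes, had a log2 signal of 18.61 to 18.77 in CTRL and 18.66 to 18.80 in ATB livers. The ATB array was the brighter one on all 6 slides, with a 75th percentile of the raw signal of 309.5 to 388.5 in CTRL and 351 to 417 in ATB mice. CrossNorm, the normalization of the study, keeps such a difference between groups. The median gene was therefore 0.10 (log2) higher in ATB livers, and 16637 of 21725 genes tested lay above 0. Quantile normalization of all arrays moved this median to -0.002. Levels below are normalized log2 signals, on which a step of 1 is a 2-fold difference, and each belongs to 1 probe, so that levels of different genes are not compared.

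ATB called 233 of 21725 genes (1.07%), where a call in limma needed a fold change above 1.2 and a Benjamini-Hochberg adjusted p of at most 0.05. Of these, 198 were higher (0.911% of all genes) and 35 were lower (0.161%). With CrossNorm, where the median of all genes was 0.10, the calls on the lower side were the larger ones. Their median log2 change was -0.77, against 0.49 on the higher side, and 10 lower and 15 higher genes changed by more than 2-fold. The sizes of calls were not compared under other scalings. All 6 ATB mice lay beyond all 6 CTRL mice in 143 of the higher and 21 of the lower calls. Over all genes tested, 812 genes (3.74%) had groups that did not overlap with ATB higher and 53 (0.244%) with ATB lower. An unadjusted p below 0.05 in limma was reached by 4068 of the 21725 genes. Counts of such p in the lists below stand beside that share. The split between directions depended on the scaling. Quantile normalization called 81 genes higher (0.373%) and 170 lower (0.783%), so that 32.3% of its calls were higher, against 85.0% with CrossNorm. Of the CrossNorm calls, 53 higher and 34 lower genes were called in the same direction under each of 5 scalings (CrossNorm, quantile, 75th percentile, normexp with quantile and the authors' values).

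**Figure D1:**
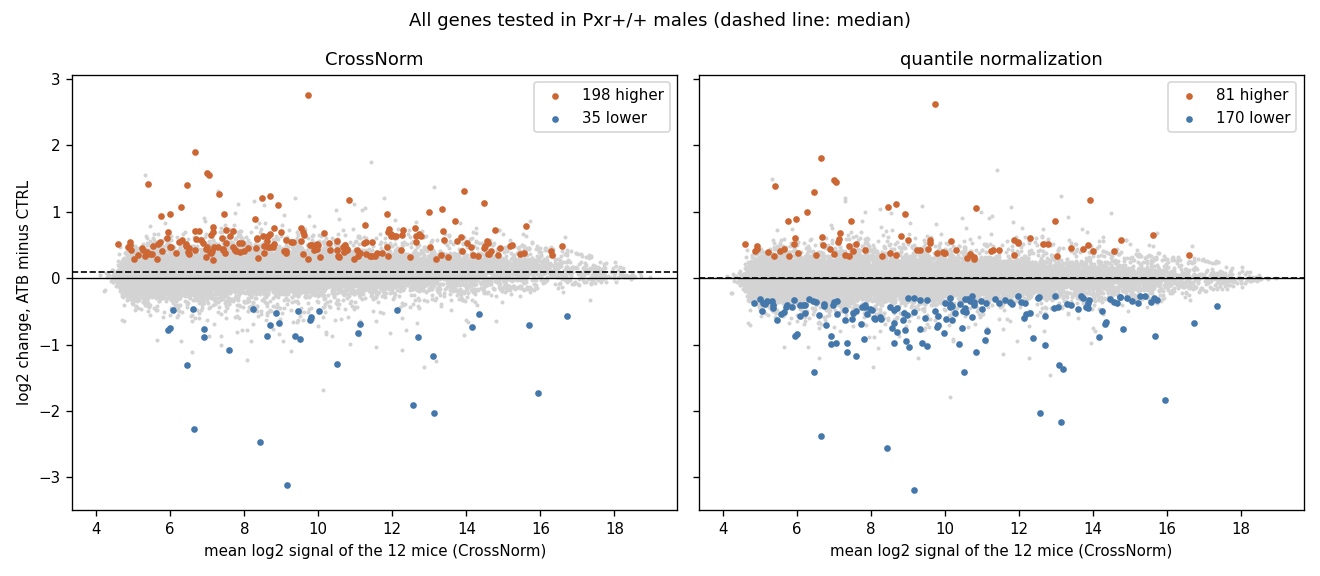
Log2 change (ATB minus CTRL, vertical axis) of each of the 21725 genes tested against its mean normalized log2 signal in the 12 male Pxr+/+ mice (horizontal axis), with CrossNorm on the left and quantile normalization on the right. Orange points were called higher (198 and 81) and blue points lower (35 and 170), and the dashed lines at 0.10 and -0.002 are the medians over all genes.

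The pregnane X receptor (PXR, encoded by Nr1i2) is a nuclear receptor that binds drugs, bile acids and microbial metabolites and pairs with RXR on repeats of a short motif in DNA. Its best known targets are the Cyp3a genes, a cluster of cytochrome P450 enzymes that oxidize drugs and steroids, and its relative CAR (Nr1i3) is best known for driving Cyp2b10. Cholesterol synthesis is run by another factor, SREBP2, which is released when sterols are low and raises nearly every enzyme of the pathway, often together with the factors NF-Y and Sp1 bound nearby. Both sets held genes called with ATB in these livers, and the upstream sequences of a few of them are shown first.

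The 250 bases before the transcription start of 4 Cyp3a genes are printed from RefSeq (build GRCm38.p6, 5′ to 3′ on the strand of the gene), because 3 of these genes were called lower and the last, Cyp3a25, was not. Capitals mark the nuclear receptor motifs AGGTCA and AGTTCA, or their reverse complements TGACCT and TGAACT.
Cyp3a11, chr5:145879855-145880104, minus strand: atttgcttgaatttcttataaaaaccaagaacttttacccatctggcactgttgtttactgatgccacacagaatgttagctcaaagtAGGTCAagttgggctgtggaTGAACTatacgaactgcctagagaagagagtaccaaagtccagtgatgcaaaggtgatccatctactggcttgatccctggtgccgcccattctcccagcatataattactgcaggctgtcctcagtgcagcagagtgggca
Cyp3a41a, chr5:145720137-145720386, minus strand: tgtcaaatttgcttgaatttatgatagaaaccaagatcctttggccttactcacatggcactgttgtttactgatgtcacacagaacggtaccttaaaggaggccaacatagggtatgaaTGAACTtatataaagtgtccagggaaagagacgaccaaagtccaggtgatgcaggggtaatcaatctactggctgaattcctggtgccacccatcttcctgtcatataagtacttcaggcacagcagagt
Cyp3a59, chr5:146079008-146079257, plus strand: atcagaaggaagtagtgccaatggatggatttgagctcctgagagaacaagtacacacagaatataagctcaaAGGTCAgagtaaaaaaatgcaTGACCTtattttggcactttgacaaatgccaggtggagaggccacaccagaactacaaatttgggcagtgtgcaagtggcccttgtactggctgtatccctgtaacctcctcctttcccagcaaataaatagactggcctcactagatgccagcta
Cyp3a25, chr5:146009618-146009867, minus strand: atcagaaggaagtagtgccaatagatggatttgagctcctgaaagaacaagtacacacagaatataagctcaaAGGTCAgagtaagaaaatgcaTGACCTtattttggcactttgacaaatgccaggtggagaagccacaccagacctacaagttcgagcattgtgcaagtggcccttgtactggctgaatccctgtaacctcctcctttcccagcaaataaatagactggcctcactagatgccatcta
In Cyp3a11, an AGGTCA began 162 bases and an AGTTCA on the other strand 142 bases before the start. Cyp3a41a held a single AGTTCA at 130 bases, and Cyp3a16, called lower as well, held neither in this window. The windows of Cyp3a59 and Cyp3a25 were 95.6% identical, and both held AGGTCA at 177 bases and, on the other strand, at 156 bases. With any promoter of a gene counted, AGGTCA stands in 15.8% and AGTTCA in 13.4% of the 27025 genes with one, searched on both strands. Of the 26 called lower genes with a promoter in the table, 10 held AGGTCA and 4 held AGTTCA. Such letters are not sites shown to be bound, and a longer window was not searched.

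The corresponding windows of 2 genes of sterol synthesis that were called higher are printed with CCAAT, the letters bound by NF-Y, or its reverse complement ATTGG, in capitals.
Idi1, chr13:8885356-8885605, plus strand: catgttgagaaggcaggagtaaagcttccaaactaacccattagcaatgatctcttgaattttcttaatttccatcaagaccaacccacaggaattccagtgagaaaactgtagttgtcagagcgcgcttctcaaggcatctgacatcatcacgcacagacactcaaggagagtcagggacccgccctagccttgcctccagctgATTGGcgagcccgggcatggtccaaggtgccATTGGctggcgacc
Mvk, chr5:114444019-114444268, plus strand: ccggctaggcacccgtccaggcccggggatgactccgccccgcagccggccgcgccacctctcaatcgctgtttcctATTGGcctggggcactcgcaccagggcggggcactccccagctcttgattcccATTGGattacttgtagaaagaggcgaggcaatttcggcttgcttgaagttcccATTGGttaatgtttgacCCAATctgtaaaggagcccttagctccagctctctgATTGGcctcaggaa
Idi1 held CCAAT on the other strand at 45 and 14 bases before the start, and Mvk held it at 5 places. With any promoter of a gene counted, CCAAT stands in 37.5% of all genes with a promoter of this length. It stands in 17 of the 19 genes of the sterol list that have one. GGGCGG, the core of an Sp1 motif, stands in 35.4% of all and 18 of 19. TCACNCCAC, a form of the sterol response element, stands in 1.22% of all and in 1 of 19, Hmgcs1. The sterol list was drawn up with earlier results of these data known, and these shares describe the list and do not test it.

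P450 genes made up 9 of the 35 genes called lower. Their share among all genes tested was not counted, and the same 9 are counted again in the lists below. Of 8 Cyp3a genes tested, 4 were called lower (background 0.161%) and 0 higher, with a median log2 change of -0.75 over the family, against 0.10 over all genes. The same 4 were called under quantile normalization. Cyp3a11, the main Cyp3a enzyme of the adult mouse liver, had a log2 signal of 13.89 (lowest), 14.15 (median) and 14.42 (highest) in CTRL mice and of 11.88, 11.99 and 12.55 in ATB mice. It fell by 2.04 ± 0.17 (log2 change ± SE, adjusted p = 1.11e-10), or 4.1-fold. Every ATB mouse lay below every CTRL mouse. On the build of the array files, mm9, its probe lies at chr5:146672058-146673925.

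Cyp3a41a ran from 16.60 over 16.84 to 16.91 in CTRL mice and from 14.61 over 15.16 to 15.37 in ATB mice. Its change of -1.73 ± 0.13 had the smallest adjusted p of all probes (6.76e-12). Cyp3a16 lay between 13.33 and 13.69 in CTRL and between 11.23 and 11.93 in ATB mice (-1.90 ± 0.17, adjusted p = 3.01e-10). Cyp3a59 was less affected, at 13.46 to 13.86 in CTRL and 12.28 to 12.75 in ATB mice (-1.18 ± 0.14, adjusted p = 1.49e-06). None of these genes had an ATB mouse inside the CTRL range, and ATB was lower on all 6 slides.

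The other members of the cluster moved less or were too dim. Cyp3a25 had a log2 change of -0.28 ± 0.16 (adjusted p = 0.353) and Cyp3a57 of -0.33 ± 0.15 (adjusted p = 0.237), with overlapping groups in both. Cyp3a13 gave 0.25 ± 0.17 (adjusted p = 0.448). Cyp3a44 was above background on 1 of 6 CTRL and 0 of 6 ATB arrays and no fold is given for it. Each of the 8 genes has a single probe, and the cluster is made of close relatives, so that signal from one transcript on the probe of another was not tested. The promoter windows of Cyp3a16 and Cyp3a41a were 91.3% identical, and those of Cyp3a11 and Cyp3a16 76.6%.

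The largest fall of all called genes was that of Cyp2b10, the classical CAR-responsive P450. Its log2 signal was 9.59, 10.94 and 11.42 (lowest, median, highest) in CTRL mice and 6.70, 7.57 and 8.62 in ATB mice, a change of -3.11 ± 0.33 (adjusted p = 5.47e-08) or 8.63-fold. A further, dimmer probe of the gene was called lower as well, but was above background on 6 of 6 CTRL and only 1 of 6 ATB arrays, so that its change is not given. Cyp2b9, a P450 of the same cluster that is far more abundant in livers of the other sex, went from 8.12, 10.03 and 10.61 to 6.76, 7.10 and 7.77 (-2.46 ± 0.31, adjusted p = 2.19e-06). The groups of Cyp2b10 and Cyp2b9 did not overlap. Signal from one Cyp2b transcript on the probe of another was not tested, so that these falls are not shown to be separate. The 4 Cyp2a genes tested were not called and gave 0.31 to 0.45. Cyp2b13 was above background in 4 of 6 CTRL and 0 of 6 ATB mice. It was not called (adjusted p = 0.173), and no fold is given for it.

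Of 14 Cyp2c genes, 2 were called lower under both CrossNorm (background 0.161%) and quantile normalization (0.783%). Cyp2c55, an inducible member of the family, lay between 7.58 and 8.50 in CTRL and between 6.77 and 7.46 in ATB mice (-1.08 ± 0.25, adjusted p = 0.0215), while its dimmer probe gave -0.68 ± 0.21 (adjusted p = 0.0919). Cyp2c38 changed by -0.53 ± 0.13 (adjusted p = 0.036). The abundant Cyp2c29, an enzyme of drug and arachidonic acid oxidation, was at -0.03 ± 0.09 (adjusted p = 0.876). Among 20 other P450 genes and genes of their electron supply 0 were called by limma, with 6 at an unadjusted p below 0.05. Cyp1a2, which oxidizes caffeine, gave 0.18 ± 0.14, Cyp2e1, the ethanol-inducible member, 0.18 ± 0.08 and Por, the reductase that serves all of them, 0.32 ± 0.24.

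**Figure D2:**
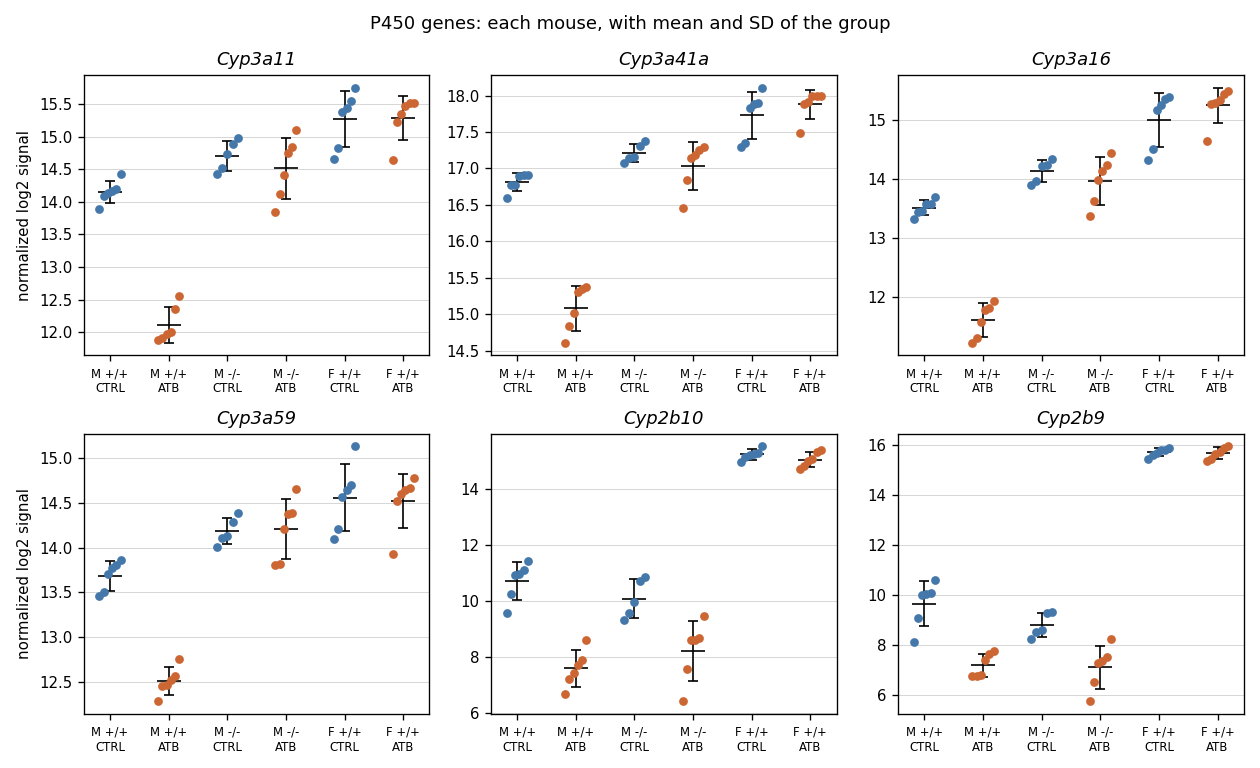
Normalized log2 signal (vertical axis) of 6 P450 genes in each mouse, with the mean and SD of the group in black, for male Pxr+/+, male Pxr-/- and female Pxr+/+ mice (M +/+, M -/- and F +/+), CTRL in blue and ATB in orange. In male Pxr+/+ mice Cyp3a11 fell from 13.89-14.42 to 11.88-12.55, while its groups overlapped in Pxr-/- males and in females, and Cyp2b10 was lower with ATB in males of both genotypes.

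The receptors themselves did not pass the test. Nr1i2 lay between 11.24 and 11.98 in CTRL and between 11.42 and 12.10 in ATB mice (0.01 ± 0.18, adjusted p = 0.985). Nr1i3 gave 0.18 ± 0.14 (adjusted p = 0.492). Of 16 nuclear receptors tested 0 were called by limma, and 1 (Nr2c1, 0.35 ± 0.13) had an unadjusted p below 0.05.

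Of the enzymes that act after the P450s, 2 of 21 glutathione S-transferases were called lower (background 0.161%) and 0 higher. Gstp1, a class pi transferase with the near-identical neighbour Gstp2, went from 13.93, 14.63 and 14.77 to 13.25, 13.75 and 14.15 (-0.74 ± 0.15, adjusted p = 0.00797), with groups that overlapped. It fell by 0.90 and 0.98 in the first 2 wash batches and was 0.21 higher with ATB on the single slide of the last batch. Gsta4, which detoxifies lipid peroxidation products, changed by -0.59 ± 0.15 (adjusted p = 0.0413). Under quantile normalization 6 members were called lower, with Gstm5, Gsto1, Gstp2 and Mgst3 added, and signal from Gstp2 on the Gstp1 probe was not tested.

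Ephx1, the microsomal epoxide hydrolase, was lower by 0.70 ± 0.17 (adjusted p = 0.031), from 15.77-16.31 to 15.19-15.72. Ces2a, a carboxylesterase that cleaves ester drugs, changed by -0.48 ± 0.10 (adjusted p = 0.0122). In both, the groups did not overlap, and ATB was lower on all 6 slides.

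Among 25 UDP-glucuronosyltransferases and sulfotransferases, 2 were called higher (background 0.911%) and 0 lower. Sult1e1, the estrogen sulfotransferase, rose from 5.30, 5.55 and 6.50 to 6.81, 7.53 and 8.75 (1.90 ± 0.44, adjusted p = 0.0206). It was called under quantile normalization (adjusted p = 0.0297). With normexp and quantile (adjusted p = 0.0658) or scaling to the spike-in probes (adjusted p = 0.0745) it was not. Sult1a1, a phenol sulfotransferase, gave 0.49 ± 0.12 (adjusted p = 0.0348) and was not called under quantile normalization (adjusted p = 0.0927). Of 21 uptake and efflux transporters limma called 0, with 6 at an unadjusted p below 0.05. Abcc3, which exports conjugates to the blood, was called lower under quantile normalization (-0.44, adjusted p = 0.019) and gave -0.31 ± 0.12 with CrossNorm (adjusted p = 0.163).

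Of 26 genes of sterol synthesis and uptake tested, 9 were called higher with ATB (background 0.911%) and 0 lower, 25 lay above 0, and the median log2 change was 0.65, or 0.55 more than that of all genes. An unadjusted p below 0.05 was reached by 24 of the 26, and by 4068 of all genes tested. The list is one that earlier results of these data had already pointed to. The mean log2 signal of the 26 genes in each mouse was 12.13 to 13.15 in CTRL and 13.26 to 13.50 in ATB mice. Less the mean of all genes in the same mouse, it was 3.61 to 4.52 and 4.62 to 4.91. Every ATB mouse stood above every CTRL mouse on both scales, and the ATB mice were the more alike.

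The genes called cover the pathway from mevalonate to the last sterol steps. Mvk, mevalonate kinase, had a log2 signal of 11.87, 12.49 and 12.94 in CTRL and of 13.30, 13.53 and 13.60 in ATB mice (0.99 ± 0.22, adjusted p = 0.015). Idi1, which isomerizes the isoprene unit, went from 12.56, 13.30 and 13.87 to 14.49, 14.58 and 14.72 (1.31 ± 0.25, adjusted p = 0.00428). The groups did not overlap in either gene, and ATB was higher on all 6 slides.

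Fdft1, squalene synthase, gave 0.86 ± 0.23 (adjusted p = 0.0494), and Sqle, squalene epoxidase, 1.04 ± 0.27 (adjusted p = 0.0469). In both the groups overlapped slightly: Sqle lay between 11.57 and 13.48 in CTRL and between 13.44 and 14.14 in ATB mice. Of the enzymes that trim and reduce the sterol ring, Msmo1 rose by 1.13 ± 0.26 (adjusted p = 0.0197), Nsdhl by 0.80 ± 0.20 (adjusted p = 0.0372), Tm7sf2 by 0.73 ± 0.11 (adjusted p = 1.68e-04) and Hsd17b7 by 0.67 ± 0.18 (adjusted p = 0.04998). Stard4, a carrier of cholesterol within the cell, rose by 0.64 ± 0.13 (adjusted p = 0.0073), from 11.40-11.91 to 12.08-12.59. These 5 genes had groups without overlap.

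Other members had the same sign without passing the test. Hmgcs1, HMG-CoA synthase at the head of the pathway, gave 0.85 ± 0.24 (adjusted p = 0.0618). Cyp51, the lanosterol demethylase and a P450 itself, gave 0.85 ± 0.23 (adjusted p = 0.0509) with groups that did not overlap. Srebf2, the gene of SREBP2, gave 0.27 ± 0.10 (adjusted p = 0.156). Insig2, which retains SREBP2 in the ER, was the single member below 0 (-0.22 ± 0.19, adjusted p = 0.566).

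The size of the sterol change varied with wash batch and with single mice. The median of the list was 0.83, 0.32 and 0.69 within the 3 batches. Under quantile normalization it was 0.53, and 4 genes (Idi1, Mvk, Tm7sf2 and Stard4) were called. With the authors' values 6 were called, and with scaling to the spike-in probes 2. CTRL replicate 3 had the lowest Idi1 (12.56) and Sqle (11.57) of all mice, and without it 3 genes were called and the median was 0.54. Without 1 of the other mice the count was 5 to 13, the highest without CTRL replicate 5.

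**Figure D3:**
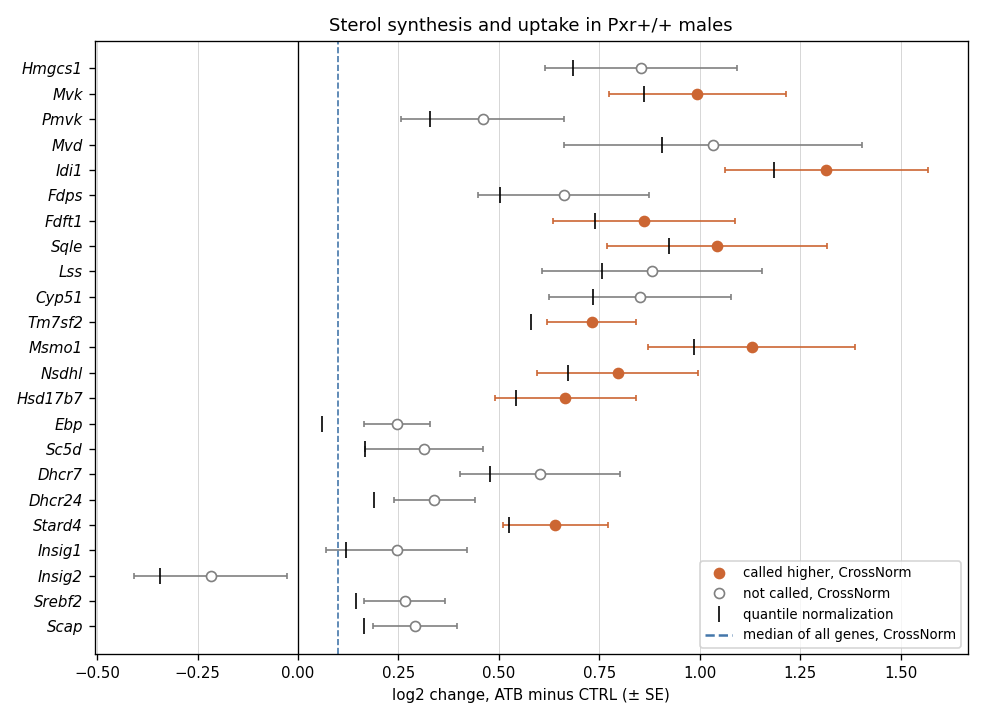
Log2 change (ATB minus CTRL, horizontal axis, with SE bars) of 23 of the 26 sterol genes in male Pxr+/+ mice, in the order of the pathway from top to bottom, with transport and regulatory genes last. Orange points are the 9 genes called, open points were not called, black ticks are the values under quantile normalization and the dashed line at 0.10 is the median of all genes. All points but that of Insig2 lie to the right of that line, up to 1.31 in Idi1.

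No gene of fatty acid and triglyceride synthesis passed the test. Limma called 0 of 26 genes, 1 (Fads1, 0.22 ± 0.10) had an unadjusted p below 0.05, and the median change was 0.04. Fasn, fatty acid synthase, ran from 15.19 over 16.56 to 17.80 in CTRL mice and from 16.35 over 16.47 to 17.11 in ATB mice (0.03 ± 0.30, adjusted p = 0.97). Scd1, the stearoyl-CoA desaturase, gave -0.09 ± 0.23 (adjusted p = 0.867). Of the fatty acid elongases, Elovl2 gave -0.16 ± 0.14, Elovl3 -0.62 ± 0.35, Elovl5 -0.27 ± 0.18 and Elovl6 0.15 ± 0.33, with adjusted p of 0.339 to 0.839. The spread between CTRL mice was wide for Fasn and Elovl6, and these errors leave room for changes of more than 1.2-fold in both directions.

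Genes of fatty acid oxidation and targets of PPARA, the fatty acid sensor of the fasting liver, leaned lower. Of 31 genes, 1 was called lower (background 0.161%) and 0 higher, 3 lay above 0, and the median was -0.17, or -0.27 relative to all genes. The called gene was Cyp4a14, a fatty acid hydroxylase. Its log2 signal was 5.72, 7.53 and 10.52 in CTRL mice and 5.04, 5.39 and 6.18 in ATB mice (-2.27 ± 0.51, adjusted p = 0.0163). It was above background on 6 of 6 CTRL and 5 of 6 ATB arrays. The groups overlapped through the lowest CTRL mouse, and the highest value belonged to CTRL replicate 3. Without that mouse, without ATB replicate 5 or without CTRL replicate 6, 0 of the 31 genes were called, and without ATB replicate 1, 3 were.

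Others of this group were close to the threshold. Under quantile normalization 5 were called lower: Cyp4a14, the acyl-CoA thioesterase Acot2 (-0.92), the pantetheinase Vnn1 (-1.04), the peroxisomal thiolase Acaa1b (-0.76) and the very long chain acyl-CoA dehydrogenase Acadvl (-0.27). With CrossNorm Acot2 gave -0.81 ± 0.22 (adjusted p = 0.0506) and Vnn1 -0.94 ± 0.26 (adjusted p = 0.0628). Fgf21, a hormone that the liver releases under metabolic stress, went from 7.86, 8.75 and 9.21 to 6.62, 7.26 and 8.84, lower on all 6 slides but not called (-1.23 ± 0.38, adjusted p = 0.0902). Cpt1a, the gate of mitochondrial fatty acid uptake, lay on the other side (0.37 ± 0.16, adjusted p = 0.214).

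Of 16 genes of bile acid synthesis and conjugation, 1 was called higher (background 0.911%) and 0 lower. Cyp2c70, which makes the muricholic acids of the mouse, rose from 14.95, 15.29 and 15.42 to 15.86, 15.99 and 16.30 (0.79 ± 0.12, adjusted p = 1.11e-04), with no overlap, and was called under each scaling tried. Cyp7a1, the rate-limiting enzyme of bile acid synthesis, gave 0.65 ± 0.52 (adjusted p = 0.528), and Cyp8b1, which sets the share of cholic acid, 0.05 ± 0.30 (adjusted p = 0.95). Of 7 genes of bile acid sensing 0 were called by limma, with 2 (Klb and Fgfr4) at an unadjusted p below 0.05.

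Sulfur amino acid genes split. Of 15 tested, 3 were called higher (background 0.911%), and none of these 3 was called under quantile normalization. They were Mat1a (0.48 ± 0.11, adjusted p = 0.0219), Bhmt2 (0.41 ± 0.10, adjusted p = 0.0286) and Cdo1 (0.37 ± 0.09, adjusted p = 0.025), of methionine and cysteine metabolism. Csad, which makes the hypotaurine that becomes taurine, was lower without overlap, at 13.20 to 14.81 in CTRL and 12.14 to 12.96 in ATB mice. Its change of -1.24 ± 0.34 missed the threshold with CrossNorm (adjusted p = 0.054) and passed it under quantile normalization (adjusted p = 0.0274), as it did with slide as a block in the model.

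The largest rise of all called genes was that of Tff3, a trefoil peptide known from mucus-secreting epithelia. Its log2 signal was 7.45, 8.39 and 9.09 in CTRL mice and 10.21, 11.01 and 12.47 in ATB mice (2.76 ± 0.37, adjusted p = 1.63e-05), 6.79-fold higher and without overlap. Atp6v0d2, a subunit of the proton pump V-ATPase known from osteoclasts and macrophages, rose from 5.93, 6.19 and 6.45 to 7.34, 7.52 and 8.55 (1.58 ± 0.24, adjusted p = 1.68e-04). The other 13 V-ATPase genes tested were not called.

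The further genes with the largest rises and no overlap were of mixed roles. Among them were Pde6c, a phosphodiesterase of cone cells (1.27 ± 0.31), Dsg1c, a desmoglein of cell junctions (1.24 ± 0.27), Omd, a matrix proteoglycan (1.096 ± 0.17), Gpx6, a glutathione peroxidase (1.08 ± 0.19), and Rbm44 (0.97 ± 0.18), with adjusted p of 2.66e-04 to 0.0327. Pde6c was not called under quantile normalization. Dimmer probes of Pde6c and Dsg1c were not called, and were above background on 0 and 2 of 6 CTRL arrays.

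On the lower side, beyond the P450s, Wfdc2, a secreted protein of the protease inhibitor type, fell from 11.02, 11.10 and 11.35 to 9.37, 9.85 and 10.40 (-1.30 ± 0.20, adjusted p = 1.68e-04). Retsat, which saturates retinol, gave -0.89 ± 0.23 (adjusted p = 0.0436). Lgals1, galectin-1, gave -0.82 ± 0.18 (adjusted p = 0.0158), Proca1 -0.87 ± 0.20 (adjusted p = 0.0163), Impa2, an inositol monophosphatase, -0.70 ± 0.16 (adjusted p = 0.0196) and Prxl2b, a prostamide synthase, -0.69 ± 0.14 (adjusted p = 0.00721). These 6 genes did not overlap between the groups and were called under quantile normalization as well.

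**Figure D4:**
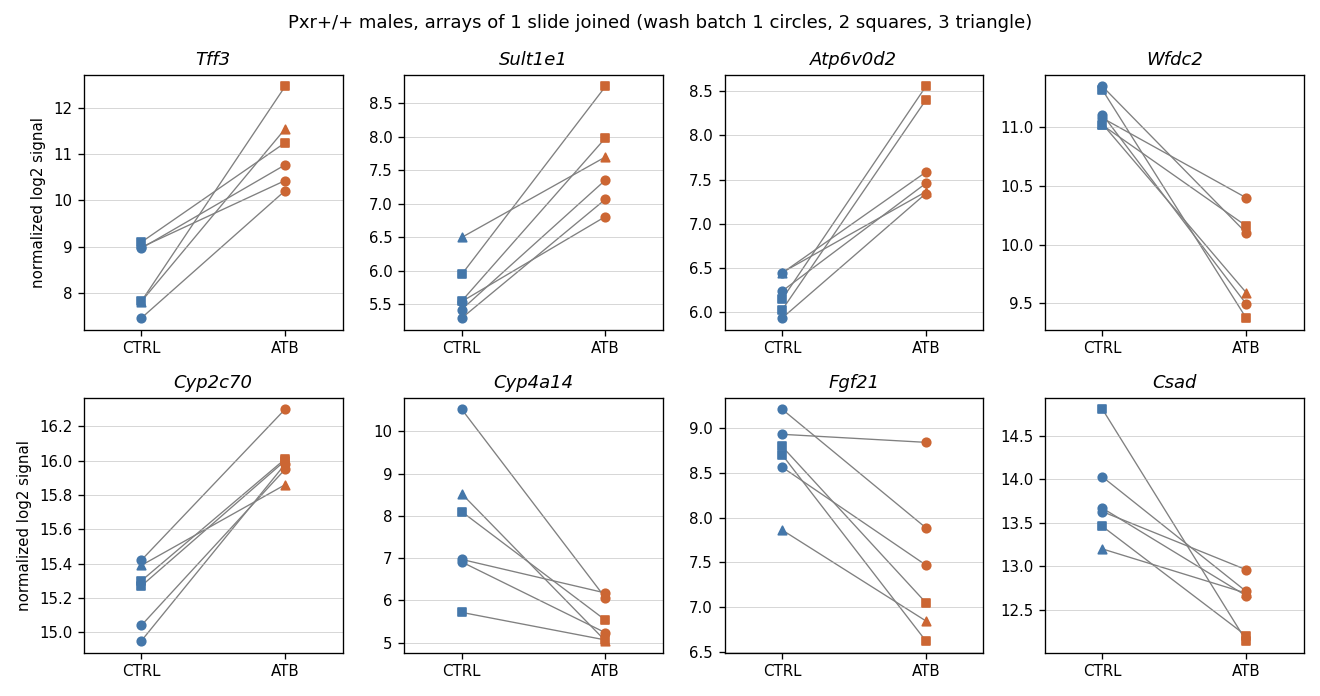
Normalized log2 signal (vertical axis) of 8 genes in CTRL (blue) and ATB (orange) male Pxr+/+ mice, with a grey line joining the 2 arrays of a slide and the marker shape giving the wash batch. Tff3 rose on all 6 slides and Fgf21 was lower on all 6, while the highest Cyp4a14 value, 10.52, is that of CTRL replicate 3.

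Immune and stress genes gave few calls. Limma called 0 of 28 genes of LPS and Toll-like receptor sensing, with 5 at an unadjusted p below 0.05 and Tnf nearest (0.69 ± 0.18, adjusted p = 0.0506). It called 0 of 30 interferon-stimulated genes, of which 12 had an unadjusted p below 0.05 and which had a median change of 0.27. It also called 0 of 28 acute phase genes (7 below 0.05, median 0.22). Over all 21725 genes, 4068 had an unadjusted p below 0.05, and the median change was 0.10. Of the interferon genes Bst2, an antiviral tether, gave -0.26 ± 0.11 (adjusted p = 0.214) and was called lower under quantile normalization (-0.38, adjusted p = 0.0149). The 22 genes of ER chaperones and the unfolded protein response all lay above 0, but by a median of 0.20, or 0.10 more than all genes, and 0 were called (1 below 0.05). Of 20 clock genes 0 were called, 3 had an unadjusted p below 0.05 and the median was 0.36. Rora, a nuclear receptor of the clock, lay below 0 (-0.32 ± 0.09, adjusted p = 0.0718) and was called lower under quantile normalization (-0.43, adjusted p = 0.00198) and the other scalings tried. Dbp, a clock output gene with a steep daily rhythm, ranged from 8.52 to 11.81 in CTRL and from 9.96 to 14.41 in ATB mice (1.75 ± 0.91, adjusted p = 0.301).

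Of the remaining metabolic lists, 1 of 20 genes of lipoprotein assembly was called higher (background 0.911%), the HDL receptor Scarb1 (0.54 ± 0.14, adjusted p = 0.0449), and not under quantile normalization. There Apoa4, an apolipoprotein of fed lipid transport, was called lower instead (-0.90, adjusted p = 0.0287), against -0.78 ± 0.22 with CrossNorm (adjusted p = 0.0646). Limma called 0 of 19 genes of glucose metabolism (1 at an unadjusted p below 0.05, median 0.15), 0 of 15 targets of the oxidative stress factor NRF2 (1 below 0.05, median -0.06) and 0 of 17 cytosolic heat shock genes (1 below 0.05, median -0.01). It called 0 of 15 male-biased liver genes (4 below 0.05, median 0.11), 0 of 14 female-biased ones (2 below 0.05, median -0.10) and 0 of 14 genes of growth hormone signalling (5 below 0.05, median 0.19). The female-biased list left out Cyp2b9, Cyp2b10 and the 4 Cyp3a genes called lower above, which were counted with the P450s. All of these had higher signals in female than in male CTRL mice. For Cyp2b9 the ranges were 15.44 to 15.88 and 8.12 to 10.61.

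Markers of other liver cells were measured beside these results. Of 19 macrophage markers, 4 lay above 0, the median was -0.21 (-0.31 relative to all genes), limma called 0 and 2 had an unadjusted p below 0.05. Their mean level less that of all genes was 1.08 to 1.44 in CTRL and 0.58 to 1.49 in ATB mice, so that the ATB range contained the CTRL range. The Kupffer cell markers Clec4f (-0.23 ± 0.17) and Vsig4 (-0.17 ± 0.24) were measured in all 12 mice, and Marco had the largest difference (-1.69 ± 0.83, adjusted p = 0.273). Markers of T and NK cells, B cells, neutrophils, endothelial cells, stellate cells and cholangiocytes had medians of -0.06 to 0.06 and 0 called genes, with 0 to 2 of each list at an unadjusted p below 0.05. The 5 erythroid markers had a median of -0.10, with 0 called and 0 below 0.05. Of 15 hepatocyte markers 1 was called higher (background 0.911%), and not under quantile normalization. All 5 tested markers of pancreas and gut lay above 0, with a median of 0.38, a mean level less that of all genes of 0.07 to 0.36 in CTRL and 0.40 to 0.96 in ATB mice, and 0 called genes (3 below 0.05). In 5 of their 10 genes no probe was bright enough to test. The part of these cells in the results above was not tested.

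**Figure D5:**
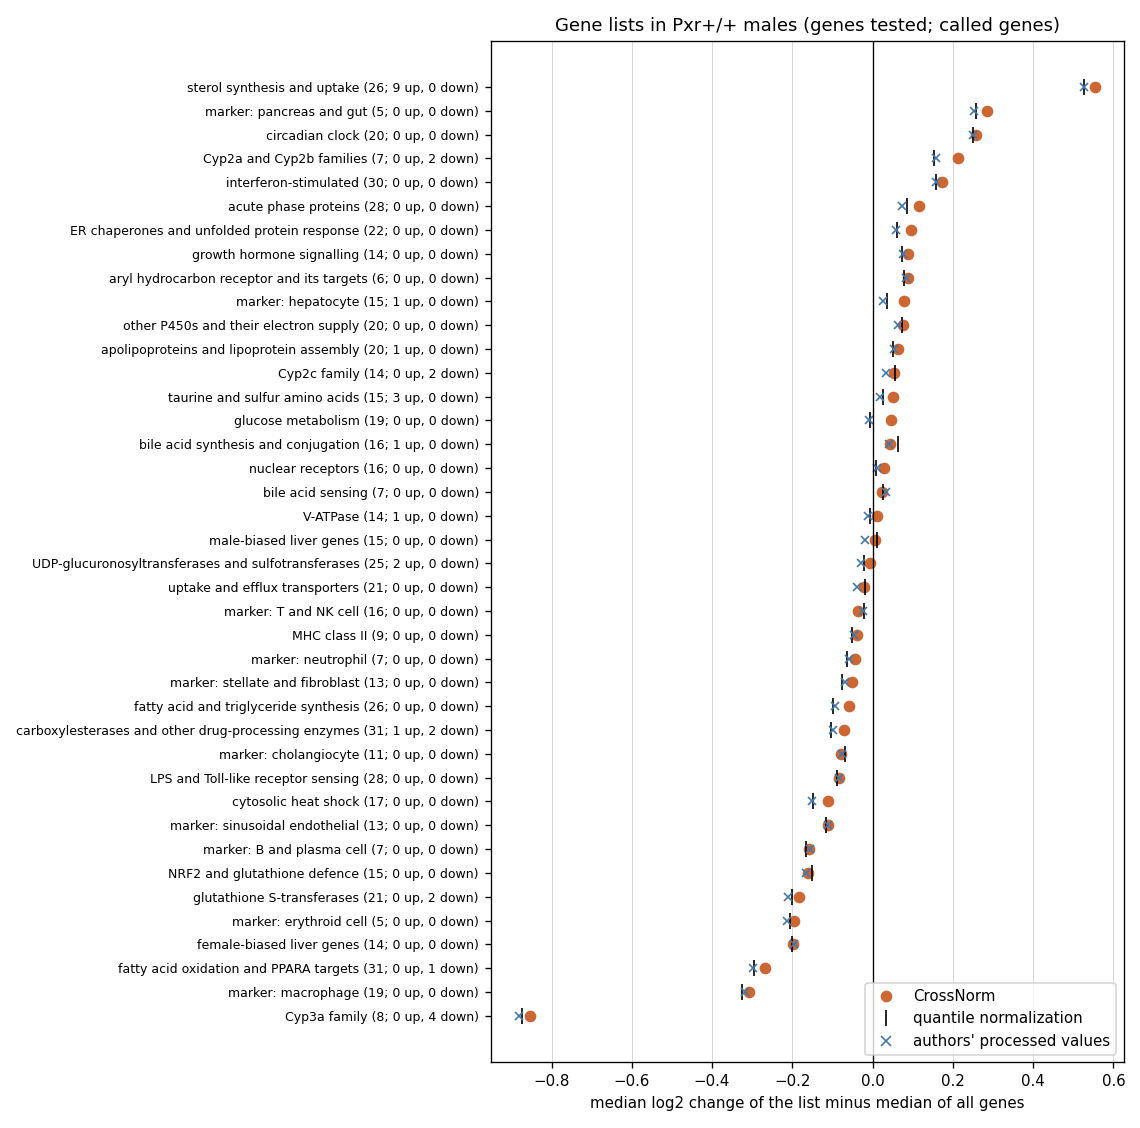
Median log2 change (ATB minus CTRL) of each gene list less the median of all genes (horizontal axis), in male Pxr+/+ mice, with orange circles for CrossNorm, black ticks for quantile normalization and blue crosses for the authors' values. Labels give the genes tested and the genes called higher and lower. Sterol synthesis lies farthest right, at 0.55, and the Cyp3a family farthest left, at -0.85.

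Whether the response of male Pxr+/+ livers differed from that of other groups was tested as a difference of changes in the same model. Compared with livers of Pxr-/- males, which lack the receptor in the whole body from birth (5 CTRL and 6 ATB mice), the difference was called for 4 of 21725 genes (0.0184%). All 4 were the Cyp3a genes above: the change was lower in Pxr+/+ males by 1.84 in Cyp3a11 (adjusted p = 8.58e-05), 1.73 in Cyp3a16 (1.30e-04), 1.55 in Cyp3a41a (1.48e-05) and 1.197 in Cyp3a59 (0.00627). In Pxr-/- males Cyp3a11 lay between 14.43 and 14.97 in CTRL and between 13.85 and 15.10 in ATB mice, and the groups of all 4 genes overlapped. The count was 4 under each of the 12 other settings with all 12 mice and 4 or 5 without 1 of them.

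For other genes no difference between the genotypes was called. Cyp2b10 and Cyp2b9 were called lower in Pxr-/- males too (-1.87 ± 0.35 and -1.68 ± 0.32, adjusted p = 0.0134 and 0.0171), and the difference between the genotypes was not called (-1.24 and -0.78, adjusted p = 0.838 for both). Atp6v0d2, Gpx6, Cyp2c70, Gstp1 and Impa2 were called in the same direction in Pxr-/- males as well. The sterol list had a median of 0.23 in Pxr-/- males, where that of all genes was 0.022. In Pxr+/+ males the 2 medians were 0.65 and 0.10. In Idi1 the difference of 0.61 between the genotypes was not called (adjusted p = 0.838). For this difference 1099 of 21725 genes had an unadjusted p below 0.05, about the share that this threshold passes when no gene differs. Genes that were called in Pxr+/+ males alone are not shown to respond differently.

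Against female Pxr+/+ livers (6 mice per group), an unadjusted p below 0.05 for the difference was reached by 2827 of 21725 genes. Between the genotypes 1099 genes reached it. The median difference between the sexes over all genes was 0.16. This difference was called for 9 genes (0.0414%). It was negative in the 4 Cyp3a genes (-1.14 to -2.15), in Cyp2b10 (-2.93, adjusted p = 0.00142) and in Cyp2b9 (-2.43, adjusted p = 0.00681). Cyp2b10 lay between 14.70 and 15.51 in all 12 females, above every male, and changed by -0.18 ± 0.33 there. How much of this signal came from Cyp2b9 or other relatives was not tested. The difference was positive in Tff3 (2.65, adjusted p = 0.0318), which in females was above background on 3 of 6 CTRL and 4 of 6 ATB arrays, at 4.56 to 5.61, so that its change there is poorly measured. It was positive too in Paip2b (0.95, adjusted p = 0.0256) and Pknox1 (0.74, adjusted p = 0.0318). The last 2 were called higher in males (0.66 ± 0.13 and 0.41 ± 0.10), and none of their dimmer probes was called. The rise of Pknox1 in males was not called under quantile normalization (0.29, adjusted p = 0.1205). Between 6 and 10 genes were called under the other settings and without single mice.

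Several genes had similar values in both sexes, and no test here shows them to be equal. Sult1e1 changed by 1.86 ± 0.44 in females (adjusted p = 0.156) and 1.90 in males, and Ephx1 by -0.70 ± 0.17 (adjusted p = 0.168) and -0.70. Ces2a changed by -0.56 ± 0.10 in females (adjusted p = 0.025) and -0.48 in males. Csad was called in females, at -2.48 ± 0.34 (adjusted p = 1.30e-04) against -1.24 in males, and the difference of 1.23 was not called (adjusted p = 0.317). The sterol list had a median of -0.19 in females, where that of all genes was -0.06, and in Idi1 the sexes differed by 1.63 (adjusted p = 0.107).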

How the data were processed

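Gene expression in whole liver was measured with Agilent SurePrint G3 Mouse GE one-color arrays, 1 array per mouse. The authors read the images with Agilent Feature Extraction 10.10.1.1 and deposited the spot intensities, with probe positions on mm9, and a table of processed log2 values for 33383 probes. Gene probes on the array numbered 56605, and 2055 of them were renamed to current RefSeq symbols.

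From the deposited median intensities, log2 values were computed, spots marked as non-uniform (422) or population outliers (3087) were dropped, and spots of a probe were averaged. Probes were kept where 5 or more arrays of some group had them well above background (32979, for 21725 genes, each represented by its probe with the highest mean signal). Wash batch was removed, arrays were normalized by CrossNorm (300 draws) and all 47 arrays were fitted in limma 3.58.1 (R 4.3.3) with 8 groups and wash batch. CrossNorm and the limma model follow the study's methods, while the stacking of arrays and the rule for dim probes were chosen here. Adjusted p are Benjamini-Hochberg values over all probes. A call needed 0.05 or less and a fold change above 1.2. The fit was tested on simulated data. The number of arrays limits the precision.

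Groups came from the labels. Genes that could be named were the members of 41 lists (701 genes), on each side the 15 called genes with the largest change among those whose groups did not overlap, the 10 largest called differences of each interaction, and the liver genes the study names. Predicted and unnamed transcripts were counted only. The members and lists were chosen with earlier results of these data known. Groups share replicate numbers, but the numbers did not pair the mice, and no block was used. The results were recomputed with 13 other settings, and 2 more were chosen after seeing the data: spike-in scaling (8 probes) and the same call under 5 scalings. Correlations between the 12 arrays lay between 0.9882 and 0.9962. A few genes are not reported here.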

Additional observations from a re-analysis of the deposited data

Results flagged for a closer look

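In 3 of 118 groups of 6 mice examined, 1 mouse stood apart from the other 5 by Dixon's criterion, where chance gives about 1 in 20. Cyp2c70 was 16.3 (log2 signal) in ATB replicate 2, with the next mouse at 16.01, and Acot1 was 13.09 in CTRL replicate 3 (next 12.13). The median background of CTRL replicate 5 was 15, with the next array at 18.

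The ATB change of male Pxr+/+ livers differed from that of Pxr-/- males, by the interaction term in limma, in Cyp3a41a (-1.552, log2), Cyp3a11 (-1.839), Cyp3a16 (-1.734) and Cyp3a59 (-1.197). It differed from that of Pxr+/+ females in Cyp3a41a (-1.88), Cyp3a11 (-2.06), Cyp3a16 (-2.152), Cyp3a59 (-1.143), Cyp2b10 (-2.927), Cyp2b9 (-2.435), Paip2b (0.9486), Pknox1 (0.7406) and Tff3 (2.647). Tff3 was above background on 3 of 6 CTRL and 4 of 6 ATB arrays of females, which limits the last value.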

How the results depend on the processing

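The number of genes called, 233 (198 higher, 35 lower), depended on the scaling. Higher and lower calls were 81 and 170 under quantile normalization, 78 and 175 with the 75th percentile, 70 and 164 with normexp, and 223 and 98 with the authors' values. Spike-in scaling gave 49 calls (19 higher), and 87 genes were called alike under 5 scalings. There were 150 calls (123 higher) with no filter on dim probes, 147 (117 higher) without wash batch and 599 (525 higher, 74 lower) with the 12 arrays fitted alone. The cause was not tested.

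Leaving out 1 mouse gave 90 to 354 calls, with 72 to 321 higher and 18 to 38 lower. The count moved by more than 1.5 times without CTRL replicates 1 (133), 3 (111), 4 (137), 5 (354) and 6 (130) and without ATB replicates 2 (125), 3 (151), 5 (90) and 6 (119), and higher calls also without ATB replicate 1 (127). The lower calls did so without CTRL replicate 3 (21) and ATB replicates 5 (18) and 6 (20). Differences between genotypes numbered 4 to 5 and between sexes 6 to 10.

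With slide as a block, 276 genes were called (238 higher, 38 lower), Csad and Cyp51 (adjusted p = 0.0444) were added and Scarb1 was lost (adjusted p = 0.0509). With the replicate number as a block, 208 genes were called (169 higher, 39 lower). Mice sharing a number correlated at -0.29 to 0.23 in their deviations, and 2 of 12 arrays matched their own number best, so that the numbers were not read as a pairing.

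For 44 of the called genes, 400 of 483 calls were kept under other settings and 386 of 528 without single mice. For 12 genes that were not called, 37 of 132 and 14 of 144 values passed. No direction reversed.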
